A study of Mus musculus with 4 samples.

Results

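Messenger RNA of p53 and of 9 genes that it is known to switch on was followed in liver. The 10 genes were taken by name: they are the rows of the read count table with the symbols Trp53, Mdm2, Ccng1, Bax, Btg2, Phlda3, Zmat3, Sesn1, Trp53inp1 and Bbc3, 10 of 35275 listed genes. All 10 had at least 1 CPM, a read count scaled to library size, in at least 1 library, as did 12180 genes in all, and these 12180 are the background against which the 10 are set.

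Livers came from 16 female mice that carry the c allele of apolipoprotein A-II, Apoa2c, the form from which AApoAII amyloid fibrils are built. The labels give the strain as AKR/J with the genotype Apoa2c congenic, whereas the study's methods describe the R1.P1-Apoa2c line. The study asked how interval training (IT) on a treadmill changes the liver with and without AApoAII amyloidosis, and proposed p53 as 1 step between exercise and the chaperone gene Hspb1. Vehicle sedentary mice (VS) and vehicle interval training mice (VI) received vehicle only. Fibril sedentary mice (FS) and fibril interval training mice (FI) received AApoAII fibrils by vein, which seed amyloid deposits, so that amyloidosis here is a seeded disease in mice of 1 genotype. All mice were 26 weeks old after 16 weeks of training or rest. Homogenates of 4 mice were pooled into 1 tube per group, so there are 4 libraries, and no spread between mice can be had from them.

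p53, encoded by Trp53, is a transcription factor that is held at a low level in unstressed cells, mainly because the ubiquitin ligase Mdm2 marks it for destruction. Stress stabilizes the protein with little need for more of its mRNA, and p53 then binds DNA as a tetramer and raises genes for cell cycle arrest, antioxidant defence and apoptosis, among them Mdm2 itself, which closes a feedback loop. Many of these targets also answer to other factors in liver, including those of fasting, growth factors and inflammation, and mRNA levels do not measure the amount of p53 protein or its activity.

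p53 binds a response element made of a pair of 10-base repeats. RefSeq promoter windows of the GRCm38.p6 build, 300 bases from 250 before to 50 after a transcription start, were at hand for 8 of the 10 genes, 11 windows in all, and Trp53inp1 and Zmat3 were not searched. The 10-base p53 consensus repeat, which reads alike on both strands, was present without mismatch in 5 of the 11 windows, in Trp53, Mdm2, Ccng1, Bax and Sesn1, and in 8.36% of all 32851 windows. A pair of such repeats 0 to 13 bases apart was in none of the 11 and in 0.0731% of all windows. A search that allowed mismatches, chosen after that result was seen, found a 20-base stretch within 3 mismatches of 2 adjacent repeats in 5 of the 11 windows, in Ccng1, Trp53, Bax, Sesn1 and Bbc3, beside 6.29% of all windows. The 5 stretches and the single repeat of Mdm2 are printed as the best match of each window that had one within 3 mismatches and, for Mdm2, an exact repeat without such a match, 5′ to 3′ on the gene's strand, with the 20-base stretch or the single repeat in capitals. The Sesn1 stretch lies before the second of its starts.
Ccng1, chr11:40755442-40755501, minus strand: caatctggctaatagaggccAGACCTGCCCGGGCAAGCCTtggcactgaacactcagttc
Trp53, chr11:69580264-69580323, plus strand: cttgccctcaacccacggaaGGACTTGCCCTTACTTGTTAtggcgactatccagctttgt
Bax, chr7:45467070-45467129, minus strand: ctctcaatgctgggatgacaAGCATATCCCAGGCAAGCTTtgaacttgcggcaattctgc
Sesn1, chr10:41887246-41887305, plus strand: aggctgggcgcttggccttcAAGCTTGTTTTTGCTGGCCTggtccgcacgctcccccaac
Bbc3, chr7:16309466-16309525, plus strand: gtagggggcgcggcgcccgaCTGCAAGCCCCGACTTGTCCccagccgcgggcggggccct
Mdm2, chr10:117710915-117710964, minus strand: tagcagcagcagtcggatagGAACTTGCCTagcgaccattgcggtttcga
The Ccng1 stretch has 1 mismatch, which 0.0883% of all windows match or better, and the other 4 stretches of 20 bases have 3 each. The windows of Btg2 (closest stretch 4 mismatches, as in 30.2% of all windows or better) and Phlda3 (5 mismatches) held no 10-base repeat. A match in letters is a description of the window and shows no binding, and elements in introns or farther upstream lie outside it.

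The libraries summed to 23442935 (VS), 24524287 (VI), 28814802 (FS) and 24801185 (FI) counts, and 1 count was worth 0.0339 to 0.0423 CPM. The hepatocyte markers Alb, Ttr, Apoa1, Serpina1a, Cyp2e1 and Hnf4a summed to between 154399 and 167150 CPM, as a liver sample should show. Skeletal muscle transcripts stood apart in VS, where 13 muscle genes summed to 78.5 CPM against 10.2 in VI, 1.12 in FS and 1.07 in FI, so VI/VS and FS/VS share a library that differs from the rest in this way. FI/FS and FI/VI do not use it, but FI/VI is not balanced either. All 11 expressed muscle genes were beyond 2-fold lower in FI/VI, against 1.95% of all genes, but that count is not read. Several, such as Myh1 and Myh2, passed the filter only through VS and were under 1 CPM in VI and FI. Myh4 and Pvalb had 1 count in VI and 0 in FI.

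Levels are given as CPM scaled by TMM, and ratios as log2 ratios of CPM with a 95% interval, with VI/VS written for VI versus VS and so on. With 1 library per group these intervals cover counting error only, not the spread between mice, and no contrast of single libraries has a test. VI/VS and FI/FS show IT without and with fibrils. FS/VS and FI/VI show fibrils without and with IT. The study reported less amyloid in FI livers than in FS livers, so training and a lower amyloid load cannot be told apart in FI/FS. The same holds wherever the IT ratios of vehicle and fibril livers are compared. VI/VS and FS/VS use the same VS library, as FI/FS and FI/VI use the same FI library, so these pairs are not independent of each other. An additive model of both factors over all 4 libraries, fitted with edgeR (quasi-likelihood, Benjamini-Hochberg adjusted p-values), gave the only p-values, and the interaction of IT and fibrils is all that it has for an error beyond what edgeR borrows across genes. It tested 11760 genes and called 0.765% of them higher and 0.714% lower with IT, and 2.81% higher and 2.17% lower with amyloidosis.

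Trp53 mRNA differed little between the 4 libraries, whereas 2 of its 9 targets, Trp53inp1 and Btg2, differed severalfold. Trp53inp1, whose product is a stress protein that promotes p53 activity and autophagy, rose with IT and with amyloidosis in the additive model. Btg2, an antiproliferative gene of the BTG/TOB family, rose with amyloidosis. The other 7 targets and Trp53 itself passed the adjusted test for neither factor. The range of levels over the 4 libraries, the highest CPM over the lowest, was 5.20 for Btg2, 3.80 for Trp53inp1 and 3.63 for the barely detected Phlda3, and 1.15 to 1.83 for the remaining 7 genes.

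**Figure D1:**
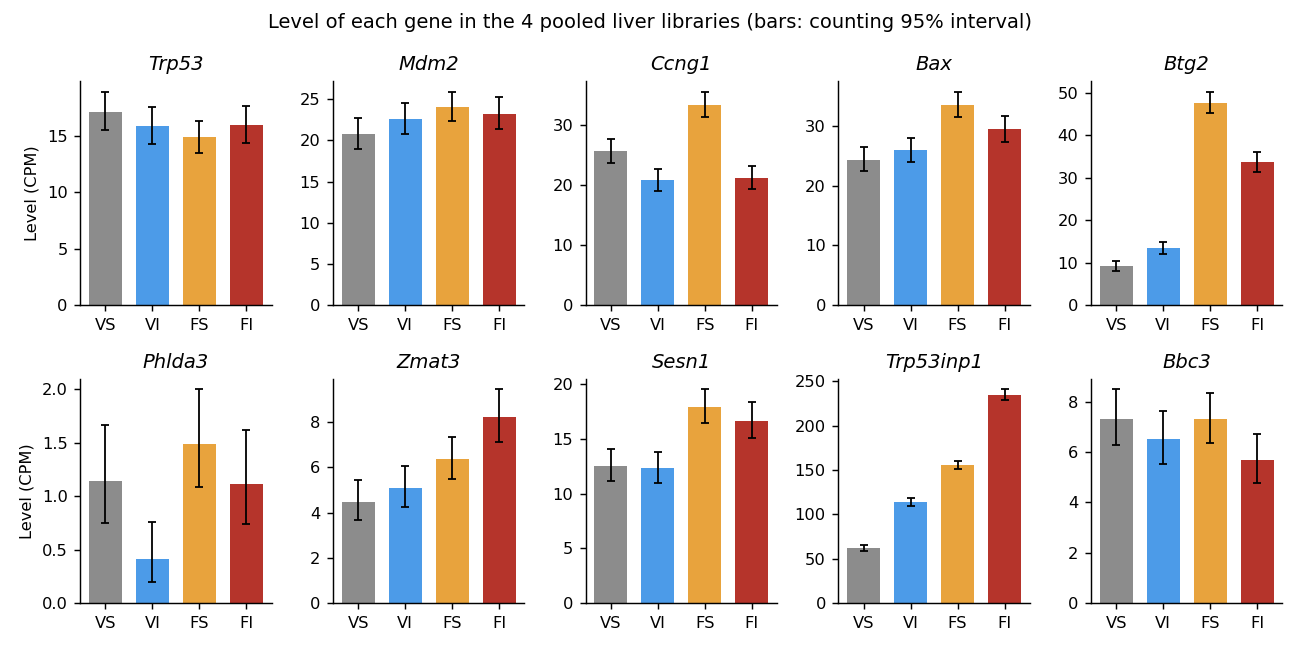
CPM of each of the 10 genes (vertical axis, own scale per gene) in the VS, VI, FS and FI libraries, with bars for the level and lines for the exact Poisson 95% interval of the count. Trp53inp1 went from 61.7 CPM in VS to 235 in FI and Btg2 was highest in FS at 47.8 CPM, while Trp53 stayed between 14.9 and 17.2 CPM.

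Trp53 (ENSMUSG00000059552, chromosome 11, 69580359 to 69591873) had read counts of 405 (VS), 386 (VI), 439 (FS) and 386 (FI). These are 17.2 CPM (15.5 to 18.9) in VS, 15.8 (14.3 to 17.5) in VI, 14.9 (13.5 to 16.3) in FS and 16.0 (14.4 to 17.6) in FI. Each library's interval overlapped that of its neighbour in the order of levels, and the lowest level was in FS. The log2 ratio was −0.11 (−0.32 to 0.09) in VI/VS and 0.10 (−0.10 to 0.30) in FI/FS, in opposite directions with both intervals holding 0. It was −0.21 (−0.40 to −0.01) in FS/VS and 0.01 (−0.20 to 0.22) in FI/VI. In the additive model the change of Trp53 was −0.00 with IT (SE 0.14, adjusted p = 0.99), and for amyloidosis it was −0.10 (SE 0.14, adjusted p = 0.73). The pseudogene Trp53-ps on chromosome 17, a near copy that could take reads from Trp53, had 0 counts in all 4 libraries. Its relatives Trp63 and Trp73 were both under 1 CPM in every library.

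Mdm2 (ENSMUSG00000020184, chromosome 10, 117688888 to 117710758), the ligase that limits p53, had read counts of 490 (VS), 550 (VI), 711 (FS) and 562 (FI). The levels were 20.7 (VS), 22.6 (VI), 24.1 (FS) and 23.2 CPM (FI), the highest 1.16 times the lowest beside 1.15 for Trp53, and neighbouring intervals overlapped throughout. Its log2 ratio was 0.12 (−0.06 to 0.30) in VI/VS, −0.05 (−0.21 to 0.11) in FI/FS, 0.21 (0.05 to 0.38) in FS/VS and 0.04 (−0.13 to 0.21) in FI/VI. The adjusted p was 0.94 for IT and 0.64 for amyloidosis.

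Ccng1 (ENSMUSG00000020326, chromosome 11, 40748552 to 40755311) encodes cyclin G1, which recruits phosphatase 2A to Mdm2. It had read counts of 606 (VS), 508 (VI), 988 (FS) and 514 (FI), or 25.7, 20.9, 33.5 and 21.2 CPM. Both IT libraries were below both sedentary ones, and only the intervals of FI and VI overlapped. The log2 ratio was −0.30 (−0.47 to −0.13) in VI/VS and −0.65 (−0.81 to −0.50) in FI/FS, the only gene of the 10 besides Trp53inp1 whose interval left out 0 in the same direction in both IT contrasts. With IT its additive change was −0.48 (SE 0.14, unadjusted p = 0.0079, adjusted p = 0.16), which did not pass. FS/VS gave 0.38 (0.24 to 0.53) and FI/VI 0.03 (−0.15 to 0.21), so the higher level with fibrils was seen in sedentary livers. Ccng2, the other G-type cyclin, was higher in both IT libraries, at 10.5 (VS), 17.9 (VI), 10.3 (FS) and 17.0 CPM (FI).

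Trp53inp1 (ENSMUSG00000028211, chromosome 4, 11156431 to 11174379) had the most reads of the 10 genes, 1458 (VS), 2777 (VI), 4595 (FS) and 5682 (FI). The levels were 61.7 CPM (58.6 to 65.0) in VS, 114 (110 to 118) in VI, 156 (151 to 160) in FS and 235 (229 to 241) in FI. No interval overlapped another, and each factor went with a higher level whether or not the other was present. IT went with a 1.85-fold higher level in vehicle livers, a log2 ratio of 0.88 (0.79 to 0.98), and a 1.51-fold higher level in fibril livers, 0.59 (0.54 to 0.65). Fibrils went with a 2.52-fold higher level in sedentary livers, 1.33 (1.25 to 1.42), and a 2.06-fold higher level in trained livers, 1.04 (0.98 to 1.11). In the additive model the log2 change was 0.74 with IT (SE 0.12, adjusted p = 0.030), and for amyloidosis it was 1.18 (SE 0.12, adjusted p = 0.0031), higher in both contrasts of each factor. The IT call was lost when only genes with at least 5 CPM in 2 libraries were tested (adjusted p = 0.053), and both calls were lost when each factor was fitted alone (adjusted p = 0.95 and 0.28). FI stood at 235 CPM, against 208 CPM if the 2 single changes from VS are added in CPM, and the log2 ratio with IT was 0.29 smaller in fibril than in vehicle livers (−0.29, −0.40 to −0.18). The additive change for its paralog Trp53inp2, an autophagy protein, was 0.27 with IT (adjusted p = 0.36) and 0.11 with amyloidosis (adjusted p = 0.65), with levels of 167, 221, 199 and 218 CPM in VS, VI, FS and FI.

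Btg2 (ENSMUSG00000020423, chromosome 1, 134075170 to 134079120) had read counts of 217 (VS), 328 (VI), 1410 (FS) and 814 (FI). The levels were 9.19 CPM (8.01 to 10.5) in VS, 13.5 (12.0 to 15.0) in VI, 47.8 (45.3 to 50.3) in FS and 33.6 (31.4 to 36.0) in FI. Both fibril libraries were above both vehicle libraries, with no overlap of intervals. FS exceeded VS 5.19-fold, a log2 ratio of 2.37 (2.17 to 2.59), the widest gap of any of the 10 genes. FI exceeded VI 2.5-fold, 1.32 (1.13 to 1.51). That contrast leaves out VS, but VI also held more muscle transcripts than FI, 10.2 against 1.07 CPM. IT went with opposite differences, 0.55 (0.30 to 0.81) in vehicle livers and −0.50 (−0.63 to −0.38) in fibril livers. The additive change was 1.84 with amyloidosis (SE 0.24, adjusted p = 0.013), higher in both contrasts, and −0.03 with IT (SE 0.24, adjusted p = 0.97). The amyloidosis call was lost with that factor fitted alone (adjusted p = 0.071). The summed CPM of 10 leukocyte markers was also higher in the fibril livers, 221 in FS and 209 in FI against 148 in VS and 157 in VI. Of the 6 markers tested, 1 passed, beside 2.81% of all genes called higher with amyloidosis. It was Lyz2, a lysozyme of macrophages and neutrophils, with an additive change of 0.82 with amyloidosis (SE 0.12, adjusted p = 0.0085). Their part in the levels of Btg2 or Trp53inp1 was not tested, and in bulk liver a change in the number of cells of a type cannot be told apart from a change in RNA per cell. The relatives Btg1, Tob1 and Tob2 were at 73.1 to 122 CPM, 104 to 116 CPM and 50.9 to 60.9 CPM over the 4 libraries and passed for neither factor.

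**Figure D2:**
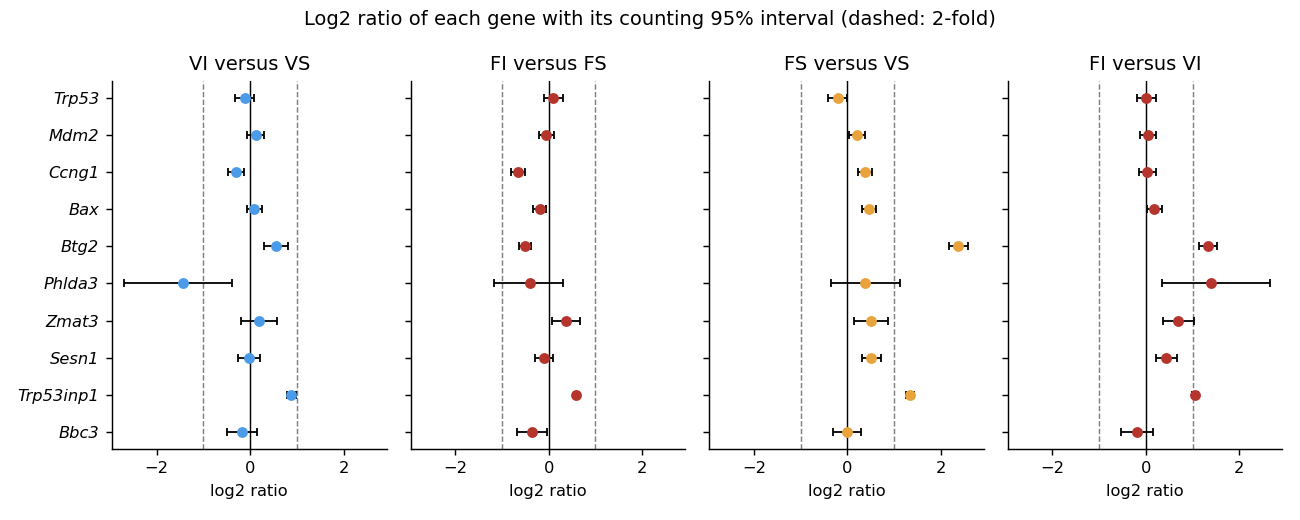
Log2 ratio of CPM (horizontal axis) of each gene in VI/VS, FI/FS, FS/VS and FI/VI, as points with the counting 95% interval; dashed lines mark 2-fold. Trp53inp1 lies right of 0 in all 4 panels, Btg2 lies at 2.37 and 1.32 in the fibril contrasts, and the wide lines of Phlda3 come from 10 to 44 counts.

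Sesn1 and Zmat3 were higher in both fibril libraries by less than 2-fold. Sesn1 (ENSMUSG00000038332, chromosome 10, 41810574 to 41908424) encodes sestrin 1, a stress protein that restrains mTORC1 signalling. It had read counts of 297 (VS), 301 (VI), 530 (FS) and 404 (FI), or 12.6, 12.4, 18.0 and 16.7 CPM. The fibril libraries were above the vehicle libraries, with no overlap between the 2 pairs. The log2 ratio was 0.51 (0.31 to 0.72) in FS/VS and 0.43 (0.22 to 0.65) in FI/VI, against −0.03 (−0.26 to 0.21) and −0.10 (−0.29 to 0.09) in VI/VS and FI/FS. Its additive change with amyloidosis, 0.47 (SE 0.14, unadjusted p = 0.010, adjusted p = 0.10), did not pass, although it did when no filter on low counts was used. The relative Sesn2 was at 13.3 (VS), 15.4 (VI), 16.1 (FS) and 24.8 CPM (FI) and did not pass either (adjusted p = 0.26 for IT and 0.12 for amyloidosis).

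Zmat3 (ENSMUSG00000027663, chromosome 3, 32334796 to 32365678), an RNA-binding zinc finger gene, had read counts of 106 (VS), 124 (VI), 188 (FS) and 199 (FI). The levels were 4.49, 5.09, 6.37 and 8.23 CPM, in the same order as those of Trp53inp1, but each interval overlapped that of its neighbour. The log2 ratio was 0.50 (0.15 to 0.86) in FS/VS and 0.69 (0.36 to 1.03) in FI/VI, and 0.18 (−0.20 to 0.57) and 0.37 (0.07 to 0.66) in the IT contrasts VI/VS and FI/FS. Its additive change with amyloidosis was 0.59 (SE 0.19, adjusted p = 0.12).

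Phlda3 (ENSMUSG00000041801, chromosome 1, 135766119 to 135769136) encodes a small pleckstrin homology protein that competes with Akt for membrane lipids. It was near the limit of detection, with 27 counts for VS, 10 for VI, 44 for FS and 27 for FI, or 1.14 CPM (0.753 to 1.66), 0.410 (0.197 to 0.755), 1.49 (1.08 to 2.0) and 1.12 (0.736 to 1.62). VI had the lowest level, and its interval touched those of FI and VS. Its ratios beyond 2-fold, −1.43 (−2.69 to −0.39) in VI/VS and 1.40 (0.35 to 2.65) in FI/VI, both rest on those 10 counts of VI. Neither additive change passed, −0.83 with IT (SE 0.42, adjusted p = 0.41) or, for amyloidosis, 0.79 (SE 0.42, adjusted p = 0.32). Its relative Phlda1 was at 23.9 (VS), 18.9 (VI), 16.3 (FS) and 12.7 CPM (FI) (adjusted p = 0.29 for IT and 0.050 for amyloidosis, just above the limit).

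Bax and Bbc3 carry the apoptotic arm of the pathway: Bax forms pores in the outer mitochondrial membrane, and Bbc3 encodes PUMA, which frees Bax by binding its inhibitors. Bax (ENSMUSG00000003873, chromosome 7, 45461695 to 45466898) had read counts of 575 (VS), 631 (VI), 990 (FS) and 711 (FI), or 24.3, 25.9, 33.5 and 29.4 CPM. The 2 fibril libraries were the higher ones, although neighbouring intervals overlapped. Its log2 ratio was 0.46 (0.31 to 0.61) in FS/VS and 0.18 (0.03 to 0.34) in FI/VI. It was 0.09 (−0.08 to 0.25) in VI/VS and −0.19 (−0.33 to −0.05) in FI/FS. The additive change with amyloidosis was 0.32 (SE 0.13, unadjusted p = 0.038, adjusted p = 0.20). In the GENCODE M21 annotation 192 of the 1576 exon bases of Bax also belong to Gm45808 on the same strand. Gm45808 is not among the listed genes, so no counts were assigned to it here.

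Bbc3 (ENSMUSG00000002083, chromosome 7, 16309616 to 16318205) had read counts of 173 (VS), 159 (VI), 216 (FS) and 138 (FI), or 7.33, 6.53, 7.32 and 5.70 CPM. The trained libraries were the lower ones, with overlapping neighbours. The log2 ratio was −0.17 (−0.49 to 0.15) in VI/VS, −0.36 (−0.68 to −0.04) in FI/FS, −0.00 (−0.30 to 0.30) in FS/VS and −0.19 (−0.53 to 0.14) in FI/VI. The adjusted p was 0.57 for IT and 0.80 for amyloidosis. Bax and Bbc3 therefore did not share an order of levels.

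Per length, on the FPKM scale, Bax was the most abundant of the 10 transcripts in VS, VI and FS, at 28.2, 29.6 and 39.5 FPKM, and Trp53inp1 came first in FI at 42.2 FPKM, with Bax next. Trp53inp1 had 11.4 FPKM in VS, 20.8 in VI and 29.4 in FS. Btg2 took the eighth place in VS, at 3.37 FPKM, and the third in FS, at 17.8 FPKM. Trp53 stood at 4.65 to 5.28 FPKM, Mdm2 at 6.67 to 7.88, Sesn1 at 3.87 to 5.80 and Bbc3 at 3.07 to 4.13, and Zmat3 and Phlda3 were the lowest at 0.284 to 1.06 FPKM. Together the 10 genes came to 184 (VS), 237 (VI), 342 (FS) and 390 CPM (FI). Trp53inp1 alone made up 33.5% of that sum in VS and 60.2% in FI, and without Trp53inp1 and Btg2 the other 8 genes summed to 113, 110, 139 and 122 CPM in VS, VI, FS and FI.

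Among the 10 genes, IT went with few differences in one direction. In VI/VS, 0 genes were beyond 2-fold higher and 1, Phlda3, was lower, where 1.54% and 1.9% of the 12180 genes were beyond 2-fold higher and lower. Counting intervals left out 0 for 2 genes that were higher, Btg2 and Trp53inp1, and 2 that were lower, Ccng1 and Phlda3, against 22.3% and 21.7% of all genes. In FI/FS none of the 10 was beyond 2-fold, where 1.75% of all genes were higher and 2.53% lower, and intervals left out 0 for Zmat3 and Trp53inp1 on the higher side and for Ccng1, Bax, Btg2 and Bbc3 on the lower side, against 24.3% and 23.9%. The median log2 ratio of the 10 genes was 0.03 in VI/VS, with 5 above and 5 below 0, and −0.15 in FI/FS, with 3 above and 7 below, while the median over all genes was 0.00 in both.

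The fibril contrasts leaned higher. In FS/VS, 2 genes, Btg2 and Trp53inp1, were beyond 2-fold higher and 0 lower, against 3.6% and 2.2% of all genes. Intervals left out 0 for 7 genes that were higher, Mdm2, Ccng1, Bax, Btg2, Zmat3, Sesn1 and Trp53inp1, and for 1 that was lower, Trp53, against 27.2% and 25.7%. In FI/VI, 3 genes, Btg2, Phlda3 and Trp53inp1, were beyond 2-fold higher and 0 lower, against 2.59% and 1.95%, and intervals left out 0 for 6 higher (Bax, Btg2, Phlda3, Zmat3, Sesn1 and Trp53inp1) and 0 lower, against 23.1% and 23.8%. The median log2 ratio was 0.42 in FS/VS, with 8 above and 2 below 0, and 0.31 in FI/VI, with 9 above and 1 below, against medians of 0.02 and 0.01 over all genes. In the additive model 1 of the 10 genes passed for IT and 2 for amyloidosis, all higher, and at an unadjusted p under 0.05 the counts were 2 of 10 for IT (Ccng1 and Trp53inp1), beside 14.7% of all genes tested, and 5 of 10 for amyloidosis (Bax, Btg2, Zmat3, Sesn1 and Trp53inp1), beside 21.4%.

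**Figure D3:**
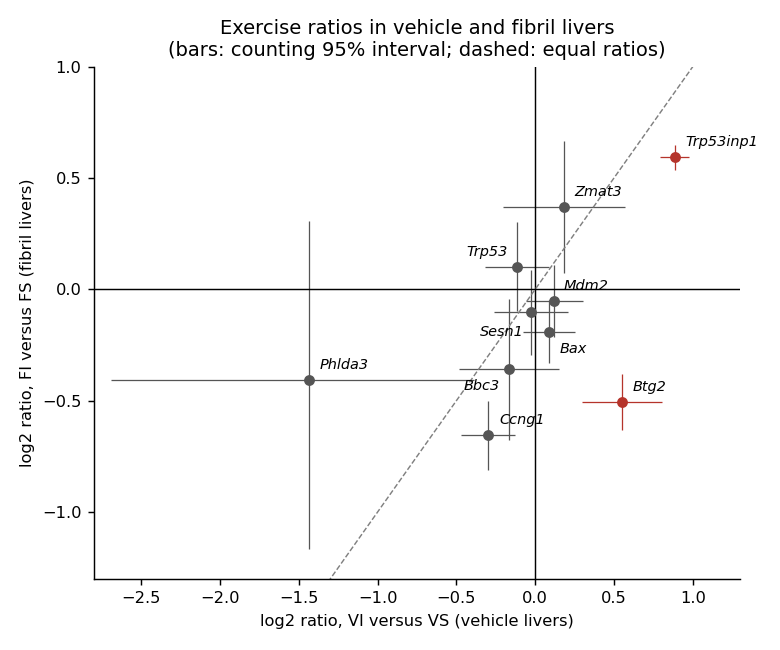
Log2 ratio with IT in vehicle livers (VI/VS, horizontal axis) against that in fibril livers (FI/FS, vertical axis) for the 10 genes, with counting 95% intervals as lines and equal ratios on the dashed line. Trp53inp1 was higher with IT on both axes, Ccng1 lower on both, and Btg2 sits at 0.55 on one and −0.50 on the other.

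The IT ratios of 4 of the 10 genes differed between vehicle and fibril livers by more than counting error, all 4 lower in fibril livers, where 19.9% of the 12180 genes were lower and 19.4% higher by the same measure. The fibril log2 ratio minus the vehicle log2 ratio was −1.05 (−1.33 to −0.78) for Btg2, −0.36 (−0.58 to −0.13) for Ccng1, −0.28 (−0.49 to −0.06) for Bax and −0.29 (−0.40 to −0.18) for Trp53inp1. The interval held 0 for the other 6, with 0.22 (−0.07 to 0.50) for Trp53 and −0.17 (−0.41 to 0.06) for Mdm2. With a single library in each cell of the layout the interaction has no test, and differences between the pooled mice are not in these intervals.

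A wider list of 34 other p53 targets, 31 of them expressed, held genes on both sides. Beyond 2-fold, 4 were higher and 2 lower in VI/VS, 2 and 2 in FI/FS, 4 and 1 in FS/VS, and 3 and 1 in FI/VI. The shares of all genes higher and lower were 1.54% and 1.9% in VI/VS and 1.75% and 2.53% in FI/FS. They were 3.6% and 2.2% in FS/VS and 2.59% and 1.95% in FI/VI. The list medians in the 4 contrasts were 0.05, 0.15, 0.02 and 0.11. Of all genes in the additive model, 0.765% rose and 0.714% fell with IT, and 2.81% rose and 2.17% fell with amyloidosis. Of the 27 tested from this list, 2 rose and 1 fell with IT, and 2 rose and 2 fell with amyloidosis. Both that rose were the same for both factors. Gadd45g, a growth arrest gene that activates stress kinases, was at 6.65 (VS), 32.8 (VI), 60.7 (FS) and 159 CPM (FI), with an additive change of 1.78 with IT (SE 0.21, adjusted p = 0.018), and for amyloidosis 2.68 (SE 0.22, adjusted p = 0.0031). Ddit4, an inhibitor of mTORC1 that also answers to glucocorticoids and low oxygen, was at 3.60, 15.1, 55.3 and 175 CPM, with changes of 1.82 (SE 0.14, adjusted p = 0.00115) and 3.70 (SE 0.15, adjusted p = 2.02e-05). Gadd45g, Ddit4 and Trp53inp1 had the same order of levels, VS, VI, FS and FI from lowest to highest. The model called each of them higher for both factors, which itself favours that order. Zmat3 and Sesn2, which passed for neither factor, had the same order. The 2 that fell with amyloidosis were metabolic enzymes, the carbonyl reductase gene Dcxr, at 151, 130, 95.6 and 90.7 CPM (change −0.59, adjusted p = 0.024), and the epoxide hydrolase gene Ephx1, at 368, 372, 253 and 215 CPM (change −0.67, adjusted p = 0.023). The gene that fell with IT was Gadd45a, at 4.87 (VS), 1.93 (VI), 4.95 (FS) and 1.53 CPM (FI) (change −1.51, adjusted p = 0.030), named after its values were seen because it is below the level set for naming.

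Cdkn1a, which encodes the cell cycle inhibitor p21 and is the classic p53 target, was also looked at after its values were seen. It had 5.63 (VS), 35.4 (VI), 30.8 (FS) and 56.1 CPM (FI). VS was by far the lowest and FI the highest. The log2 ratio was 2.65 (2.39 to 2.93) in VI/VS and 0.87 (0.74 to 0.99) in FI/FS. It was 2.44 (2.19 to 2.72) in FS/VS and 0.66 (0.54 to 0.79) in FI/VI. Neither additive change passed, 1.65 with IT (SE 0.53, adjusted p = 0.35) or, for amyloidosis, 1.44 (SE 0.53, adjusted p = 0.29).

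Of 18 regulators of p53, 16 were expressed and 15 tested, and none passed for either factor in the additive model. The medians were 0.18 in VI/VS, 0.02 in FI/FS, 0.10 in FS/VS and −0.01 in FI/VI, and Mdm4, the partner of Mdm2, stayed between 43.9 and 48.9 CPM. Of 12 relatives of the 10 genes 9 were expressed and 8 tested, and none passed for either factor, with Ccng2 nearest for IT (change 0.74, adjusted p = 0.050, just above the limit). A list of 12 cell cycle genes that p53 lowers through p21 held 4 expressed genes, at 0.254 to 1.66 CPM. All of these but Aurka reached 1 CPM in FS alone, so the filter itself favoured higher levels in FS, and their ratios are not read. Aurka, the 1 gene with enough counts for the additive model, did not pass for either factor (adjusted p = 0.95 for IT and 0.90 for amyloidosis).

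Of 12 genes of the BCL2 family, which sets the threshold for apoptosis that Bax executes, 11 were expressed and 10 tested. With amyloidosis 1 rose and 2 fell, beside 2.81% and 2.17% of all genes tested. With IT none passed, beside 0.765% higher and 0.714% lower. The gene that rose was Bcl2l1, whose main product BCL-XL inhibits Bax, at 43.2 (VS), 32.1 (VI), 66.1 (FS) and 82.7 CPM (FI) (change 0.98, SE 0.18, adjusted p = 0.034). Those that fell, Bik and Bmf, encode BH3-only proteins that promote apoptosis. Bik was at 10.6, 9.11, 5.42 and 5.87 CPM (change −0.81, adjusted p = 0.042) and Bmf at 10.6, 5.30, 3.90 and 3.47 CPM (change −1.06, adjusted p = 0.046). The pro-apoptotic Bax and Bbc3 did not pass in the same model.

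**Figure D4:**
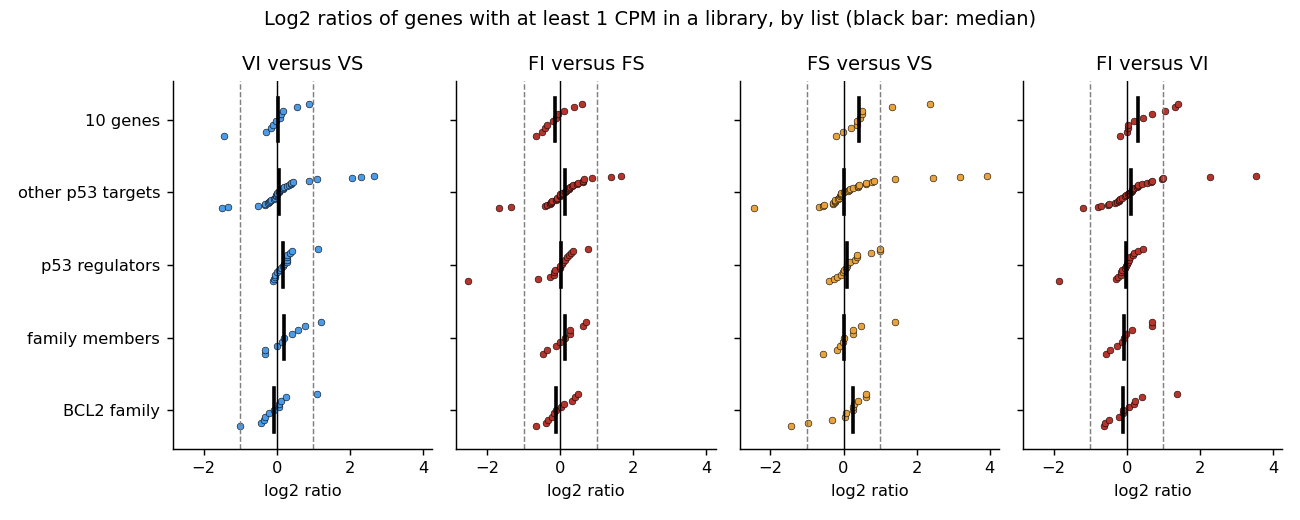
Log2 ratios (horizontal axis) in the 4 contrasts for the 10 genes and for the lists of other p53 targets, p53 regulators, relatives of the 10 genes and the BCL2 family, each point a gene with at least 1 CPM in a library and each black bar the list's median. The other p53 targets spread to both sides with medians of 0.05, 0.15, 0.02 and 0.11, while the 10 genes had medians of 0.42 and 0.31 in the 2 fibril contrasts.

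Hspb1, the chaperone gene that the study places downstream of p53, was measured in the same libraries. It was at 13.7 (VS), 6.69 (VI), 4.81 (FS) and 22.2 CPM (FI), and its log2 ratio with IT was −1.03 in vehicle livers and 2.20 in fibril livers. By qPCR of individual mice the study reported higher Hspb1 mRNA in VI and in FS than in VS, with a further rise in FI. In the pooled libraries, 1 per group, VI and FS were instead below VS. The reason for this difference was not tested.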

How the data were processed

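Liver homogenates of 4 mice per group were pooled by the authors before RNA extraction, giving 1 library per group. The submitters' processing notes name fastp 0.23.2, STAR 2.5, HTSeq 0.6.1 and the mm10 build, and the study used edgeR 3.4. The sources used here do not say whether counting used strand. The deposited table holds raw read counts per gene, summing to 23442935 to 28814802 per library, and the deposited FPKM values equal those counts per length and total. FPKM was used to compare genes per length.

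The software was edgeR 4.0.16, DESeq2 1.42.0 and limma 3.58.1 in R 4.3.3, and SciPy 1.17.1 and matplotlib 3.10.9 in Python 3.11.15. CPM values use TMM-scaled library sizes. Levels have exact Poisson intervals and log2 ratios a prior of 0.5 counts and Clopper-Pearson intervals, both at 95% and for counting error only. The additive model was edgeR's robust quasi-likelihood fit of amyloidosis and exercise on the 11760 genes that reached 1 CPM in 2 or more libraries, TMM being recomputed on them, 1 residual degree of freedom, Benjamini-Hochberg adjustment and a limit of 0.05. Its code was tested on simulated data.

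The 10 genes and all lists were chosen with earlier results of these data known. From the lists, genes were named if beyond 2-fold the same way in both contrasts of a factor or called by the model, with at least 5 CPM in 1 library, and relatives beside their gene. Alternatives changed the scaling, tool, filter, prior, fold limit, measure and design.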

Additional observations from a re-analysis of the deposited data

Results flagged for a closer look

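Btg2 was singled out because its IT difference ran in opposite directions in vehicle and fibril livers. It was 13.5 CPM in VI against 9.19 in VS, a log2 ratio of 0.55, and 33.6 CPM in FI against 47.8 in FS, a log2 ratio of −0.50. The second minus the first was −1.05 (−1.33 to −0.78, counting error only). This difference was not tested, since each of the 4 groups is 1 pooled library. Of the 12180 genes, 805 (6.61%) also had IT ratios in opposite directions with both counting intervals leaving out 0, and Btg2 was the only one of the 10 genes among them. If both single changes from VS are added in CPM, FI would stand at 52.0 CPM, above the 33.6 CPM measured.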

How the results depend on the processing

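Of 70 alternative values for counts and medians of the 10 genes, 61 stayed within the limits set for an unchanged value and 9 moved; of 336 alternative values for single genes, 325 did, 4 moved, 2 crossed the test's limit upward and 4 downward, and 1 reversed, the change of Btg2 with IT (−0.03, and 0.0025 with DESeq2). In all 5 single-gene values changed sign, each 0.03 or less in size: that one, Trp53 in FI versus VI (0.01, and −0.02 with total counts and −0.01 with FPKM) and Bbc3 in FS versus VS (−0.00, and 0.02 with either). The 1 gene beyond 2-fold in VI versus VS became 0 with FPKM and a pseudocount of 1, 0 with a filter of at least 5 CPM in 1 library, and 2 at 1.5-fold, where 11.6% of all genes were beyond that limit. The 0 genes in FI versus FS became 2 at 1.5-fold, beside 13.5% of all genes, and the 3 in FI versus VI became 1 with FPKM, beside 1.14%, a measure whose pseudocount shrinks the ratios of low genes. The 1 gene called for IT became 0 with at least 5 CPM in 2 libraries, 2 with no filter (Ccng1 joined Trp53inp1) and 0 with IT fitted alone. The 2 called for amyloidosis became 0 with that factor alone and 3 with no filter (Sesn1 joined). For Trp53inp1 the adjusted p for IT ranged from 1.05e-06 with no filter to 0.95 alone (DESeq2 0.0028, limma-voom 0.019), and that for amyloidosis was 0.28 alone; for Btg2 it was 0.071 alone. Over all genes, the 174 called for IT became 82 with at least 5 CPM, 740 with no filter and 0 alone, and the 585 called for amyloidosis became 1519 with no filter and 8 alone. The alternatives for the difference in IT ratio between fibril and vehicle livers were chosen after seeing the data. The causes were not tested. No library could be left out, since each group has 1. No paired analysis was possible because each group has 1 library and the labels give no replicate numbers. Counting error limits Phlda3, with 10 counts in VI, and no depth can stand in for the missing spread between mice.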
